A study of Rattus norvegicus with 19 samples.

Results

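Progenitor Leydig cells were compared with stem Leydig cells of the Sprague-Dawley rat. The comparison took the 3 arrays titled as progenitor and the 5 titled as stem, 8 of the 19 arrays of the series, and is described here across genes other than the steroid enzymes. Both groups come from this outbred strain, and the labels name no genotype or agent for either. No age, purification step or culture condition is given in the sources used here, and any such difference between the groups cannot be told apart from the stage. The other arrays hold immature Leydig cells, adult Leydig cells and bone stem cells, and they entered the model only to estimate the spread. The labels also leave unstated whether replicate arrays had different animals or cultures behind them, so the p-values measure the spread between arrays, which may be technical.

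Leydig cells lie between the seminiferous tubules and make the testosterone of the testis. In the lineage, a spindle-shaped mesenchymal stem cell gives rise to a progenitor, which begins to express the receptor for luteinizing hormone and the steroid pathway, and then to immature and adult cells. Steroid-making cells are known for abundant mitochondria, peroxisomes and lipid stores, while mesenchymal stem cells are known for matrix adhesion and for contractile fibres.

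Against stem cells, progenitor cells had higher signals for most fatty acid oxidation genes and for several retinoid and claudin genes. Signals were lower for most focal adhesion and actin genes, for several fibronectin, vitronectin and collagen receptor integrins, for some glycolytic genes and for most ligands of the transforming growth factor beta and platelet-derived growth factor families. Within solute carriers, channels and receptors, large differences ran in both directions. Among 14217 named genes, 45.2% passed the test (26.7% higher and 18.5% lower in progenitor cells, limma, adjusted p under 0.05), so a count of members has to be read against these shares. With a minimum of 2-fold, 10.6% were higher and 7.92% lower. The progenitor and stem values did not overlap for 44.8% of named genes. Of all 31042 probe sets, named or not, 36.7% passed (22% higher and 14.7% lower), and 7.93% and 6.18% with the 2-fold minimum. On the 24 gene lists used here, with 2655 measured genes, 685 were higher and 571 lower.

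Values are MAS5 signals, a linear intensity per probe set that the authors scaled to 1 trimmed mean per array, and differences are progenitor minus stem on the log2(signal + 16) scale, each with its standard error (SE). This scale understates the fold of a gene that is dim in 1 group. The median signal of the 8 arrays ran from 21.4 to 32.75. The balance of higher to lower calls depends on the scaling. Higher calls made up 59.9% of the called probe sets on the deposited scale, 49.2% with quantile normalization and 34.3% with median centring, and the median difference of all probe sets was 0.08, -0.01 and -0.15 on these scales. Progenitor replicate 3 stood apart in the ratio between the 3' and 5' probe sets of beta-actin, which was 6.346 there and 1.026 to 1.836 elsewhere among the 8 arrays. Without it, 5674 probe sets were higher and 4084 lower, against 6823 and 4562 with it.

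The labels were checked against cell type markers. Of 10 Leydig cell markers, 9 were higher in progenitor cells and Star did not pass, and their summed signal was 18652 to 28571 on the progenitor arrays and 744.9 to 2045 on the stem arrays. Markers of other cells moved with the groups as well. Of 36 leukocyte markers, 24 were higher and 1, Cd14, was lower, with a summed signal of 11713 to 14163 in progenitor and 1080 to 1698 in stem cells, and 14 of the 36 lay under a signal of 16 on all stem arrays. Ptprc, the pan-leukocyte phosphatase CD45, averaged 370.6 and 11.26. The largest rises on the list were of Cd7 (6.13 ± 0.29), Gzma (5.62 ± 0.30), Coro1a (5.19 ± 0.30), Laptm5 (5.02 ± 0.27) and Il2rb (4.92 ± 0.22). Cd7, Gzma and Il2rb are also on the killer lymphocyte list given at the end. Cd74 (4.82 ± 0.36), Tyrobp (4.39 ± 0.25) and Fcer1g (4.25 ± 0.28), which myeloid cells share with other leukocytes, were also among the larger rises. Other macrophage and myeloid genes on the list were higher by less, among them Mpeg1 (1.92 ± 0.24), Mrc1 (1.19 ± 0.26) and Csf1r (1.07 ± 0.28). Some did not pass, among them Cd68 (47.68 and 29.74), Itgam (1.891 and 2.152), Lyz2 (833.6 and 539.1) and Adgre1 (9.832 and 16.82). Cx3cr1, C1qa, C1qb and C1qc did not pass either.

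Endothelial markers were higher in 12 of 20 cases and lower in 3, with sums of 1884 to 3200 in progenitor and 1216 to 1477 in stem cells. Erythroid markers were higher in 6 of 9 and lower in 0 (3477 to 5357 against 42.73 to 86.92). Most of their progenitor sum came from Hbb, which averaged 4153 in progenitor and 2.975 in stem cells. Klf1, Gata1 and Rhag did not pass. Smooth muscle markers were lower in 12 of 14 and higher in 0 (3981 to 4172 against 12332 to 26132). Sertoli cell markers were higher in 4 of 8 and lower in 1 (1594 to 1694 against 618.2 to 931.5). Most of their progenitor sum came from Aard (845.3, and 122.4 in stem cells) and Cldn11 (364.6 and 9.717). Clu was lower (241.4 and 550.7), and Wt1, Dhh and Rhox5 did not pass. Fibroblast markers were higher in 2 of 10 and lower in 5 (11826 to 15098 against 15959 to 29624). Germ cell markers summed to 187.6, 218 and 438.9 on the progenitor arrays and to at most 59.68 on the stem arrays, with the highest value on progenitor replicate 3. In such bulk samples, fewer cells of a type and less RNA per cell cannot be told apart, and the part of these markers in the results that follow was not tested.

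**Figure D1:**
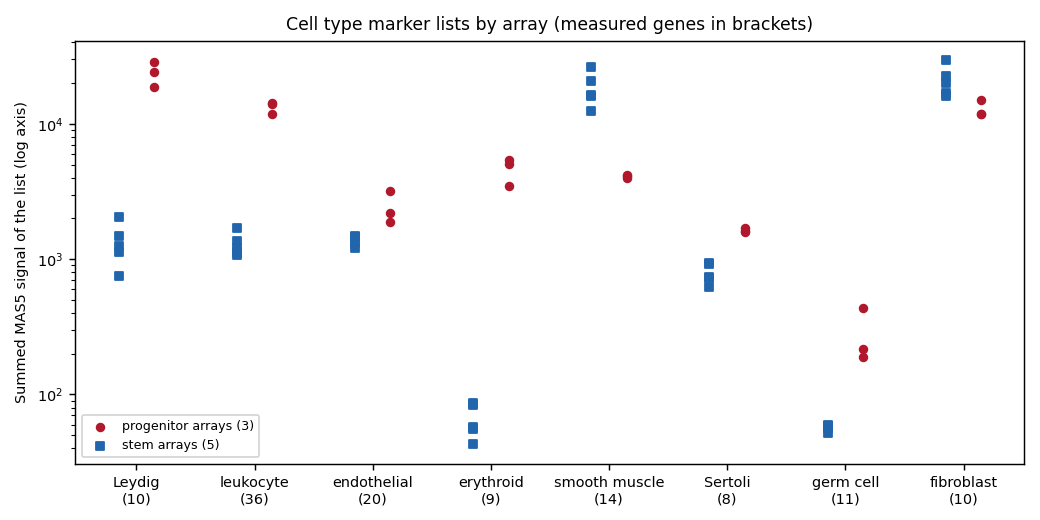
Summed MAS5 signal (log axis) of 8 marker lists, with circles for the 3 progenitor arrays, squares for the 5 stem arrays and the number of measured genes in brackets. Leydig, leukocyte and erythroid sums are higher on every progenitor array than on any stem array, and the smooth muscle sums are lower (3981 to 4172 against 12332 to 26132).

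Transport genes were called less often than named genes as a whole (37.4% against 45.2%), with large differences in both directions among those called. Of 653 measured genes of membrane transport, 147 (22.5%) were higher and 97 (14.9%) lower in progenitor cells, beside 26.7% and 18.5% of named genes, but the counts were 115 and 125 with quantile normalization and 102 and 178 with median centring. Solute carriers, which move sugars, amino acids, lipids and ions across membranes, gave 72 higher and 55 lower of 306 (57 and 66, and 49 and 91, under these scalings). Their median difference was 0.06, beside 0.08 over all named genes. ABC transporters, ion pumps and aquaporins gave 33 higher and 13 lower of 103, and 22 and 19 with median centring. Ion channels were called less often than named genes as a whole, with 42 higher and 29 lower of 244 (29.1% called, against 45.2%), and here too lower calls outnumbered higher ones under both scalings (32 and 45 with quantile normalization, 31 and 68 with median centring).

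Carriers of lactate and glucose were lower or higher by isoform. Slc16a3 encodes MCT4, the carrier that exports lactate from glycolytic cells, and its signals were 11.75, 10.51 and 13.71 on the progenitor arrays and 602.2, 946, 983.2, 923.9 and 1031 on the stem arrays. The groups did not overlap, as the naming rule requires, although stem replicate 1 was below the other stem arrays. The log2 difference was -5.01 ± 0.19 (adjusted p = 3.07e-14). Of 9 monocarboxylate carriers, 4 were lower and 3 higher, among them Slc16a1 (0.91 ± 0.20), which encodes MCT1, and Slc16a6 (2.54 ± 0.19). The glucose transporter gene Slc2a1, which encodes GLUT1, had signals of 214.9, 218.6 and 332.4 in progenitor and 397.1, 731.9, 468, 644.5 and 683.8 in stem cells. All stem values exceeded the progenitor values (-1.14 ± 0.23, adjusted p = 0.000539). Slc2a3, which encodes GLUT3, was lower by more (-3.49 ± 0.18), and the insulin-responsive Slc2a4 was higher (0.87 ± 0.18), so that of 9 glucose transporters 4 were lower and 1 higher.

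The promoter of Slc16a3 is shown because this gene has the largest fall among the solute carriers. The sequence is RefSeq's for the GRCr8 build, the 250 bases before the start on the plus strand at chr10:106712078-106712327. Capitals mark its matches to the AP-1 motif TGANTCA and to the TEAD motif CATTCC, which is read here as its reverse complement:
Slc16a3: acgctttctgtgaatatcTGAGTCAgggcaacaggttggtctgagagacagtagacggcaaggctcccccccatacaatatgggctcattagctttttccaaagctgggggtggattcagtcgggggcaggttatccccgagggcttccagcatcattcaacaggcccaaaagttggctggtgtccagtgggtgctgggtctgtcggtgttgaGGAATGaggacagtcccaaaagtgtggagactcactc

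Amino acid carriers were split. Slc38a4, a sodium-coupled neutral amino acid carrier, had signals of 499.3, 469.1 and 339.2 in progenitor and 5.991, 21.32, 14.3, 32.03 and 21.56 in stem cells (3.72 ± 0.22, adjusted p = 4.46e-11). Slc7a8, which encodes the large neutral amino acid carrier LAT2, was higher by 3.63 ± 0.12. The neutral amino acid carrier genes Slc1a4 (-2.79 ± 0.18) and Slc1a5 (-1.54 ± 0.29) and the arginine carrier gene Slc7a1 (-1.48 ± 0.18) were lower. Slc1a3, a glutamate and aspartate carrier, was at 386.8, 373.3 and 512.7 in progenitor and 9.487 to 17.03 in stem cells by its brightest probe set (3.86 ± 0.18, adjusted p = 7.22e-13). Its other probe sets disagreed, at 1.73 ± 0.25 and, in the opposite direction, -1.37 ± 0.26 (adjusted p = 0.000219), so that a direction for the gene is uncertain. In the group of 26 amino acid carriers 8 were higher and 6 lower, a balance that median centring turned to 7 and 9. Fatty acid transport protein genes were higher in 3 of 5 cases, with Slc27a1 at 2.04 ± 0.14 and Slc27a3 at 3.37 ± 0.17.

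The largest rise and the largest fall of the transport genes were both of aquaporin genes. Aqp9, an aquaglyceroporin that passes glycerol and other small solutes, had signals of 586.9, 771.8 and 789 in progenitor cells and of 1.529 to 13.55 in stem cells (5.08 ± 0.21, adjusted p = 1.31e-13). Aqp1, a water channel, went the other way, from 1561, 1153, 1452, 1465 and 1713 in stem to 24.65, 21.54 and 37.01 in progenitor cells (-5.09 ± 0.19, adjusted p = 2.77e-14). The other 9 aquaporins lay between -0.23 (Aqp11) and 0.56 (Aqp8). Atp2b3, which encodes a plasma membrane calcium pump, was at 423.9, 515.2 and 689.1 in progenitor and 3.794 to 14.13 in stem cells (4.45 ± 0.30). Slc8a1, the sodium-calcium exchanger, was high on all stem arrays (513.6 to 646.6) and at 16.67, 19.36 and 29.12 on the progenitor arrays (-4.05 ± 0.27). The cholesterol and phospholipid exporter gene Abca1 was higher by 3.02 ± 0.27, and Atp8b1, a phospholipid flippase gene, was lower (-2.55 ± 0.16).

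Channel genes with the largest rises were Ano1, a calcium-activated chloride channel, and Kcnt1, a sodium-activated potassium channel. Ano1 signals were 435.6, 478 and 533.6 in progenitor cells and 19.22 to 37.8 in stem cells (3.45 ± 0.13). Kcnt1 was at 173.3, 184 and 302.5 against 4.588 to 8.616 (3.35 ± 0.24). Falls were largest for Kcnmb1, the smooth muscle subunit of the large-conductance potassium channel, at 3.308 to 12.93 in progenitor and 115.8 to 281.4 in stem cells (-3.15 ± 0.23), beside the lower smooth muscle markers given above. The mechanosensitive channel gene Piezo1 was at 59.35 to 65.45 and 299.2 to 436.6 (-2.24 ± 0.17). The progenitor and stem values of these 4 genes did not overlap, as the rule that named them requires. Over all 14217 named genes, 44.8% did not overlap.

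**Figure D2:**
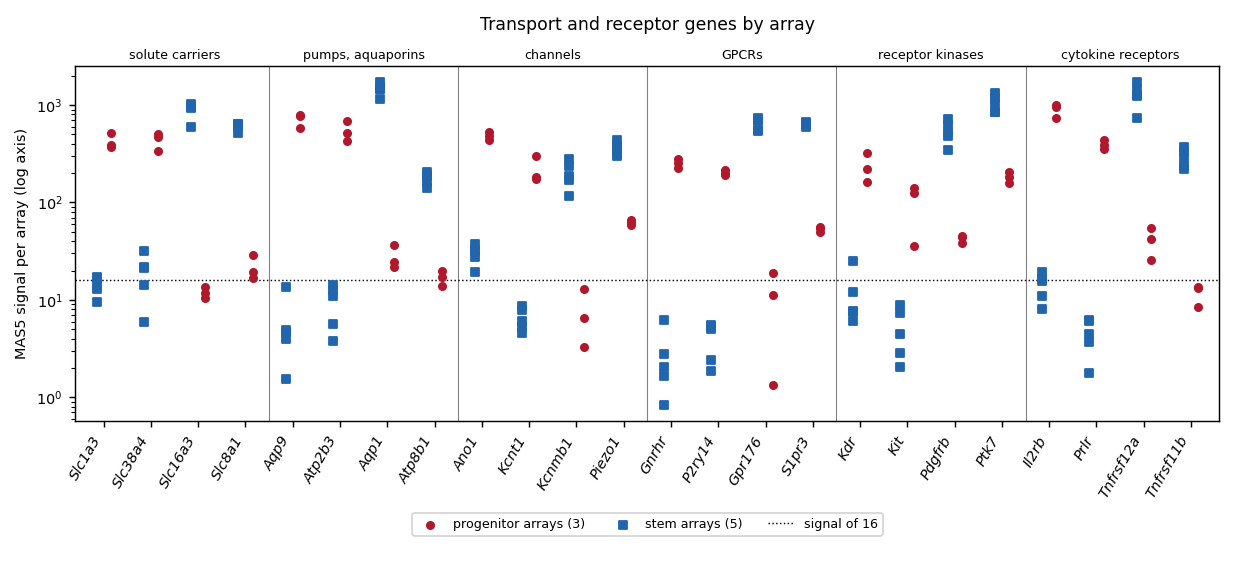
MAS5 signal (log axis) of 24 transport and receptor genes, with circles for the 3 progenitor arrays, squares for the 5 stem arrays and a dotted line at a signal of 16. In each gene shown the groups do not overlap, as the rule that named them requires, and Slc1a3 is drawn by its brightest probe set, with another called in the opposite direction.

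Receptors were called in 39.5% of cases, beside 45.2% of named genes as a whole. Of 377, 78 were higher and 71 lower as deposited, but lower calls were the more frequent with quantile normalization (67 and 93) and with median centring (61 and 122). The G protein-coupled receptors, which include those for peptide hormones, lipids and nucleotides, gave 40 higher and 33 lower of 222, a balance that also turned (34 and 49, and 33 and 72). The receptor for gonadotropin-releasing hormone, Gnrhr, known from the pituitary, had signals of 227.4, 279.4 and 255.3 in progenitor cells and of 0.8315 to 6.243 in stem cells (3.85 ± 0.33, adjusted p = 7.26e-09). P2ry14, a receptor for UDP-sugars, was at 190.9 to 214 against 1.866 to 5.475 (3.45 ± 0.20). The orphan receptor gene Gpr176 was at 740.6, 560.9, 701.1, 544.7 and 693 in stem cells and at 11.14, 1.339 and 18.77 in progenitor cells (-4.70 ± 0.21). S1pr3, a receptor for sphingosine 1-phosphate, was also lower, at 50.16 to 56.11 against 599.9 to 667.2 (-3.23 ± 0.21).

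Growth factor receptors included exchanges within families. Of 47 receptor tyrosine kinases, 12 (25.5%) were higher and 14 (29.8%) lower, beside 26.7% and 18.5% of named genes. Pdgfrb, 1 of the 2 receptors for platelet-derived growth factor, had signals of 619.4, 476, 344.7, 723.8 and 531.4 in stem cells and of 44.3, 38.76 and 45.02 in progenitor cells (-3.20 ± 0.24, adjusted p = 1.57e-09). No progenitor value came near a stem value, and the naming rule requires groups that do not overlap. Its partner Pdgfra was higher in progenitor cells (1.35 ± 0.20), while the ligands Pdgfa (-2.74 ± 0.20), Pdgfc (-1.33 ± 0.26) and Pdgfd (-0.49 ± 0.16) were lower. Ptk7, a receptor of planar cell polarity, was lower too (160.3 to 204.4 against 839.2 to 1336, -2.41 ± 0.17).

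Kit, the stem cell factor receptor, had progenitor signals of 140.9, 124.8 and 36.13, the last on replicate 3, and stem signals of 2.036 to 8.963 (2.32 ± 0.31, adjusted p = 5.04e-06). Its ligand gene Kitlg was higher as well, at 669.9, 712.8 and 410.5 against 39.52 to 162.5 (2.34 ± 0.32). For both genes the progenitor and stem arrays were fully separated, which the naming rule requires of Kit but not of Kitlg. Progenitor replicate 3 was the lowest of its group for both. The largest rise among these kinases was that of Kdr, a receptor for vascular endothelial growth factor and an endothelial marker (163.5 to 322.3 against 6.097 to 25.12, 3.18 ± 0.39). It stands beside the higher endothelial markers given above.

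The cytokine and transforming growth factor beta family receptors gave 15 higher (22.7%) and 17 lower (25.8%) of 66, beside 26.7% and 18.5% of named genes. Prlr, the prolactin receptor, which acts on Leydig cells, was at 352.6, 441 and 393.1 in progenitor and 1.778 to 6.281 in stem cells (4.33 ± 0.32, adjusted p = 9.36e-10). Il2rb, a receptor chain for interleukins of lymphocytes and a leukocyte marker, was at 729.5, 957.6 and 1010.0 against 8.116 to 19.52 (4.92 ± 0.22), beside the leukocyte sums given above. Tnfrsf12a, the receptor for TWEAK, fell from 737.4, 1225, 1718, 1255 and 1454 in stem to 25.42, 41.86 and 54.75 in progenitor cells (-4.50 ± 0.22). Tnfrsf11b, which encodes the decoy receptor osteoprotegerin, was lower (-3.44 ± 0.30). The receptor for leukemia inhibitory factor, Lifr, was higher (47.73 to 51.16 against 7.762 to 15.68, 1.26 ± 0.15), and the ligand gene Lif, at 2.643 to 8.943 and 6.206 to 16.69, did not pass (-0.40 ± 0.21, adjusted p = 0.139).

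Nuclear receptors, which bind steroids, retinoids and lipids, were called about as often as named genes as a whole (42.9% against 45.2%). Of 42, 11 (26.2%) were higher and 7 (16.7%) lower, beside 26.7% and 18.5% of named genes. By 2-fold or more, 2 were higher and 1 lower, beside 10.6% and 7.92% of named genes. The count of higher receptors was 7 without progenitor replicate 1, and with median centring it was 6 against 11 lower. Nr0b1, which encodes DAX1, a repressor of steroid genes, had signals of 277.4, 302.8 and 269.6 in progenitor and 8.503 to 11.45 in stem cells (3.53 ± 0.15, adjusted p = 1.83e-13). Nr1d2, of the circadian clock, was higher by 0.90 ± 0.15. Nr2f6 was lower (-0.56 ± 0.15, adjusted p = 0.0045), a call that was lost without progenitor replicate 3 (adjusted p = 0.0572). The glucocorticoid receptor gene Nr3c1, at 236.5 to 290.9 and 178.4 to 257.5, overlapped between the groups and did not pass (0.30 ± 0.13, adjusted p = 0.0718).

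Metabolism was the theme with the largest share of higher genes. Of 443 measured enzymes and related genes, 168 (37.9%) were higher and 60 (13.5%) lower, beside 26.7% and 18.5% of named genes, with a median difference of 0.21. After median centring, the counts were 110 and 89. The fatty acid oxidation and peroxisome list held the largest share of all 24 lists, with 37 of 57 higher (64.9%) and 4 lower, and a median of 0.78. With median centring, 30 were higher and 8 lower, and without progenitor replicate 3 the counts were 35 and 4.

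Within it, all 17 measured genes of the carnitine shuttle and mitochondrial beta-oxidation passed the test, 16 of them higher. This family, like the other small families given here, was picked after its values were seen, and all of its measured members are counted. Acaa2, the thiolase of the last step, had signals of 1934, 2647 and 2408 in progenitor and 300.3, 267.5, 338, 242.2 and 266.2 in stem cells (2.97 ± 0.15, adjusted p = 4.79e-12). The lowest progenitor value was far above the highest stem value, and the naming rule requires groups that do not overlap. Acadm, the medium-chain dehydrogenase, was higher by 1.70 ± 0.11 and Cpt1a, the liver-type carnitine palmitoyltransferase of the rate-limiting entry step, by 1.68 ± 0.18. The exception, Cpt1c, a brain-type form of that enzyme, was lower (-1.31 ± 0.30). With median centring, 13 of the 17 were higher and 1 lower.

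Peroxisomes shorten very long and branched fatty acids. Phyh, which starts the breakdown of phytanic acid there, was at 1219, 1419 and 1183 in progenitor and 147.3, 98.57, 96.37, 123.5 and 97.72 in stem cells (3.34 ± 0.17, adjusted p = 3.16e-12). Peroxins, which assemble the organelle, were higher in 9 of 14 cases and lower in 0, with Pex19 at 1.40 ± 0.14, and with median centring 5 were higher and 2 lower. The acyl-CoA synthetase genes Acsl4 (104 to 209.3 against 523.9 to 745.6, -1.92 ± 0.20) and Acsl1 (45.71 to 62.95 against 124.8 to 170.8, -1.30 ± 0.15) were among the 4 lower genes of the list.

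Fuel uptake genes differed in the same groups. Cd36, which takes up fatty acids, was at 290.2, 308.6 and 226.1 in progenitor cells and 6.699 to 17.99 in stem cells (3.38 ± 0.32). Lpl, the lipase that frees fatty acids from lipoproteins, was lower, at 19.24 to 21.44 against 259.3, 396.5, 523.4, 444.9 and 451.1 (-3.54 ± 0.28). The fatty acid and glycerolipid synthesis list gave 23 higher (38.3%) and 9 lower (15%) of 60, beside 26.7% and 18.5% of named genes. With median centring this list gave 14 and 11. In it, the desaturase genes moved apart, with Fads2 higher (318.3 to 553.7 against 41.25 to 57.03, 2.92 ± 0.21) and Fads3 lower (36.35 to 53.13 against 399.9 to 658.8, -3.08 ± 0.17).

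Glycolysis ran the other way. Of 37 genes of glycolysis and lactate, 14 (37.8%) were lower and 8 higher, with a median of -0.16, and the lower genes were 17 under both other scalings. Eno2, an enolase known from neurons, was at 132.3, 92.32 and 104.2 in progenitor and 864.8, 939.1, 761.6, 906.5 and 989.4 in stem cells (-2.86 ± 0.21, adjusted p = 6.87e-10). Hk2, a hexokinase of glycolytic cells, was lower (-1.23 ± 0.21). Isozymes were exchanged in part. Ldhb, the lactate dehydrogenase subunit of oxidative tissue, was higher (1710.0, 2121 and 2003 against 468.4 to 815.4, 1.58 ± 0.18), while Ldha, at 1647, 2010.0 and 1447 against 1821 to 3135, overlapped and was called lower (-0.52 ± 0.17, adjusted p = 0.02). The Ldha call was lost without progenitor replicate 1 (adjusted p = 0.0584), progenitor replicate 3 (0.117) or stem replicate 5 (0.0508), with the replicate number as a block (0.0818), and with only the 8 arrays fitted (0.0641). Pdk4, a kinase that shuts off pyruvate oxidation, was higher (2.05 ± 0.19), and Pdk1 lower (-0.75 ± 0.12).

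In the citrate cycle and respiratory chain 32 of 97 genes (33%) were higher and 4 (4.12%) lower, beside 26.7% and 18.5% of named genes. The differences were smaller (median 0.22). Only 4 of the higher genes reached 2-fold. Idh3g, of the isocitrate dehydrogenase that feeds the respiratory chain, was at 1105, 1323 and 1094 in progenitor and 402.1 to 542.8 in stem cells (1.32 ± 0.12), and Suclg2 was higher by 1.11 ± 0.16. The higher count was 46 with quantile normalization and 12 with median centring, so its size rests on the scaling. The lower calls for the ATP synthase inhibitor Atp5if1 (-0.64 ± 0.18, adjusted p = 0.00763) and for Ndufs4 (-0.64 ± 0.23, adjusted p = 0.0313) were lost, the first with the mean of all its probe sets (adjusted p = 0.764) and the second without progenitor replicate 1 (0.0873), progenitor replicate 2 (0.135) or stem replicate 3 (0.08).

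**Figure D3:**
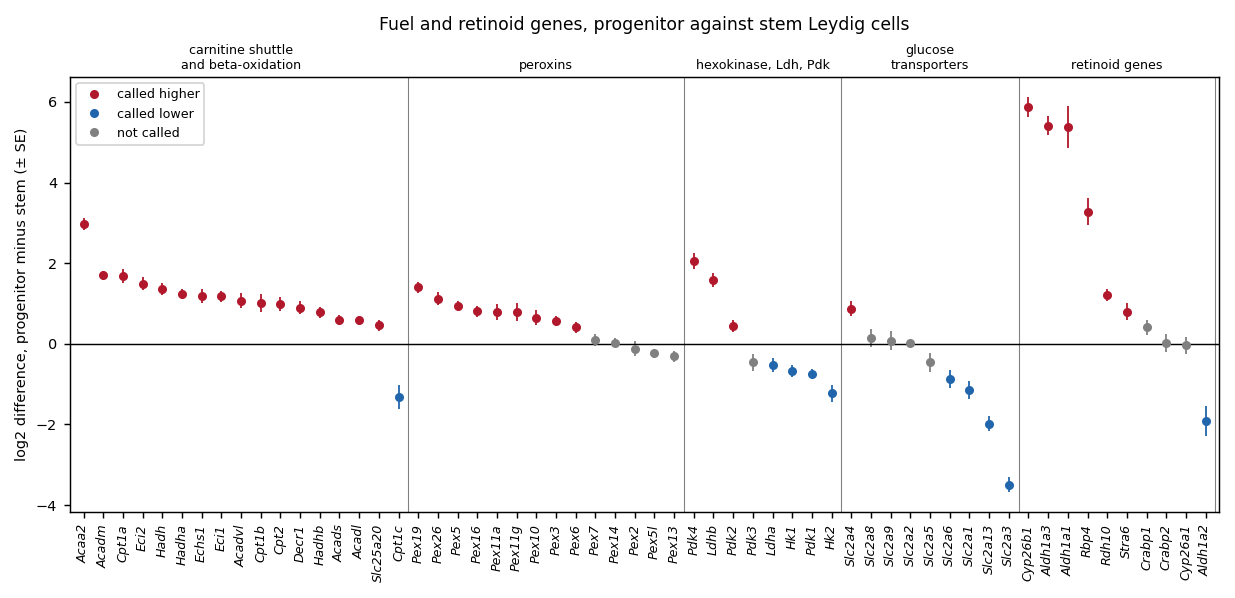
Log2 difference, progenitor minus stem, with its SE for every measured gene of 5 families, red where called higher, blue where called lower and grey where not called. Of the 17 genes of the carnitine shuttle and beta-oxidation 16 are red (13 with median centring), 4 of 9 glucose transporters are blue, and the retinoid genes range from -1.91 to 5.88.

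Retinoid genes were among the highest rises outside steroid synthesis. Retinoic acid, a regulator of germ cell and somatic development in the testis, is made from retinol by retinol and retinal dehydrogenases and is broken down by CYP26 enzymes. Cyp26b1, which degrades it, had signals of 1336, 1581 and 2421 in progenitor cells and 5.84, 14.12, 19.79, 24.9 and 7.309 in stem cells (5.88 ± 0.25, adjusted p = 2.87e-13). The retinal dehydrogenase genes Aldh1a3 (5.41 ± 0.24) and Aldh1a1 (5.37 ± 0.52) were higher and Aldh1a2 lower (-1.91 ± 0.38). Rbp4, the plasma retinol carrier (3.28 ± 0.33), Rdh10 (1.21 ± 0.14) and Stra6 (0.80 ± 0.22) were higher, which makes 6 of 10 higher and 1 lower, the same counts under both other scalings. Adh1c, an alcohol dehydrogenase, was at 1777, 2070.0 and 2203 against 17.98 to 31.86 (5.69 ± 0.22). Over the whole list of cytochromes P450, aldehyde dehydrogenases and conjugating enzymes, 37 were higher and 12 lower (30.1% and 9.76%), and 31 and 26 with median centring.

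Amino acid, one-carbon and pentose phosphate enzymes gave 31 higher (44.9%) and 17 lower (24.6%) of 69, beside 26.7% and 18.5% of named genes. The counts were 17 and 20 with median centring. Ass1, the argininosuccinate synthase that remakes arginine from citrulline, was at 2145, 2996 and 1842 in progenitor and 7.529, 1.524, 13.18, 3.188 and 5.34 in stem cells (6.72 ± 0.25, adjusted p = 3.07e-14). Arg1, the arginase that breaks arginine down, was lower (-2.79 ± 0.16). Bcat1, the cytosolic branched-chain aminotransferase, fell from 751.6, 1036, 902.6, 1040.0 and 1103 to 5.997, 2.954 and 13.73 (-5.39 ± 0.15, adjusted p = 5.53e-16). Gamt, of creatine synthesis, was higher (556.3 to 646 against 93.99 to 216, 2.19 ± 0.18), and the mitochondrial folate enzyme gene Aldh1l2 lower (15.74 to 29.71 against 163.5 to 344, -3.01 ± 0.25).

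Adhesion genes were more often lower in progenitor cells. Of 515, 183 (35.5%) were lower and 112 (21.7%) higher, and lower calls outnumbered higher ones under both other scalings. The focal adhesion and actin cytoskeleton list had the largest share of lower genes of all 24 lists, with 59 of 88 lower (67%) and 9 higher, and a median of -0.85. It gave 53 and 7 without progenitor replicate 3. The median differences and counts stand beside the smooth muscle markers, of which 12 of 14 were lower.

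Genes of core proteins that tie integrins to actin were lower, with vinculin (Vcl) at -2.86, alpha-actinin (Actn1) at -2.63 and talin (Tln1) at -0.61. Palld, an actin crosslinker, varied among the stem arrays (1072, 275.7, 878.8, 183.8 and 156.6) but lay above the progenitor values of 10.13, 18.43 and 29.49 on each of them (-3.52 ± 0.49, adjusted p = 6.66e-06). Genes of hematopoietic cells were among the few that were higher, with Fermt3, the kindlin of blood cells, at 1.86, beside the leukocyte markers. Pfn2 (1.46 ± 0.19) and Pdlim3 (1.30 ± 0.28) were higher as well.

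Ccn2, a matrix-associated growth factor and a known target of the mechanically regulated YAP and TEAD factors, had signals of 5094, 2693, 2399, 1897 and 3514 in stem cells and of 168.4, 104.8 and 315.4 in progenitor cells (-3.92 ± 0.32, adjusted p = 3.70e-09). Every stem value was above every progenitor value, as the naming rule requires. Of 6 CCN genes, 4 were lower and 0 higher. The promoter of Ccn2 is shown because it holds 3 matches to the TEAD motif CATTCC, in capitals as the reverse complement. It is RefSeq's for GRCr8, the 250 bases before the start on the minus strand at chr1:22624615-22624864:
Ccn2: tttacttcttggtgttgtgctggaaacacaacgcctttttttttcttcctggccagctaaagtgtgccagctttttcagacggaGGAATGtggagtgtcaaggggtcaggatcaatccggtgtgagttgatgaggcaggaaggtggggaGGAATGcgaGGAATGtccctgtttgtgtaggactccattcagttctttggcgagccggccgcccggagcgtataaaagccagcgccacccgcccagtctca

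RefSeq promoters of 300 bases were matched for 42 named genes that were higher and 40 that were lower, and searched on both strands. The TEAD motif was in 5 of the 40 lower genes (12.5%) and 1 of the 42 higher genes (2.38%), beside 13.9% of all 27457 promoters. AP-1 matches were in 5 of 40 (12.5%) and 4 of 42 (9.52%), beside 7.33%. The NR5A1 motif AAGGTCA was in 0 of both sets and in 4.37% of all promoters. The GLI motif TGGGTGGTC was in 0 of both (0.379% of all). The CREB motif TGACGTCA (1.91% of all) and the CArG box (1.64%) were each in 1 lower gene, Ldha, and in 0 higher genes. A match describes letters in this window and is not evidence of binding.

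The list of integrins and cell adhesion molecules gave 27 higher (25.5%) and 41 lower (38.7%) of 106, beside 26.7% and 18.5% of named genes. Integrins are heterodimeric receptors for matrix and for other cells. Of 22 subunits, 10 were lower and 7 higher, with the same counts under both other scalings. Means were under 16 in both groups for 3 of the 22, among them Itgb6, called lower (1.011 and 4.582). Itga11, a collagen receptor of mesenchymal cells, had signals of 1045, 456.7, 563.4, 515.9 and 742.2 in stem and 6.949, 8.168 and 9.004 in progenitor cells (-4.76 ± 0.24, adjusted p = 2.47e-12). The fibronectin and vitronectin receptor subunits Itga5 (-3.28 ± 0.24), Itgb5 (-3.11 ± 0.16) and Itgav (-1.85 ± 0.20) were lower. Itgax, a leukocyte integrin, was higher (404.2, 505.2 and 612.5 against 13.52 to 26.01, 3.76 ± 0.31), as were the leukocyte subunits Itgad (3.65 ± 0.25) and Itgal (2.76 ± 0.24), beside the leukocyte sums given above. Itga9 (2.82 ± 0.29) and Itgb4 (1.55 ± 0.18), which are not restricted to leukocytes, were higher too.

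Among other adhesion molecules, Vcam1 was at 860.9, 597.8 and 694 in progenitor and 7.574 to 17.58 in stem cells (4.65 ± 0.20). Mcam, known from perivascular cells, was lower (72.29 to 155.3 against 1100.0 to 1521, -3.51 ± 0.41). Cadherin, tight junction and gap junction genes were called less often than named genes as a whole (36.4% against 45.2%), with 15 higher and 17 lower of 88. Of 16 cadherins, 5 were lower and 1 higher, beside 18.5% and 26.7% of named genes. Means were under 16 in both groups for 8 of them, among these the higher one, Cdh1 (15.7 and 0.6838). Cdh2, N-cadherin, fell from 305.4, 304, 263.9, 352.7 and 264.5 to 10.37, 6.913 and 11.19 (-3.62 ± 0.16, adjusted p = 3.51e-13), and Cdh11, of mesenchymal cells, from 1333 to 1991 down to 147.1 to 297.4 (-2.87 ± 0.30).

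Of 20 claudin, occludin and junctional adhesion molecule genes, 9 were higher and 2 lower (8 and 4 with median centring). Means were under 16 in both groups for 10 of the 20, among them Cldn3, called higher (7.638 and 2.535). Cldn1 was at 705.6, 633 and 240.3 in progenitor and 10.59 to 22.49 in stem cells (4.03 ± 0.33), with the lowest progenitor value on replicate 3, and Ocln was higher by 2.91 ± 0.20. Some of the higher claudins are markers of other cells. Cldn11, on the Sertoli cell list, averaged 364.6 in progenitor and 9.717 in stem cells (3.85 ± 0.25). It is itself part of the Sertoli sums given above, and other genes of that list were lower or did not pass. Cldn5, an endothelial marker, was at 394.1, 349.2 and 753.3 against 6.751 to 28.5 (4.10 ± 0.50). Connexins, which form gap junctions, were lower in 4 of 10 cases and higher in 0, and 5 of the 10 had means under 16 in both groups. The main connexin of Leydig cells, Gja1, was at 802.6, 957.6 and 1187 in progenitor and 1914 to 2666 in stem cells (-1.24 ± 0.18, adjusted p = 1.11e-05). It averaged 2009 in immature and 3873 in adult Leydig cells.

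**Figure D4:**
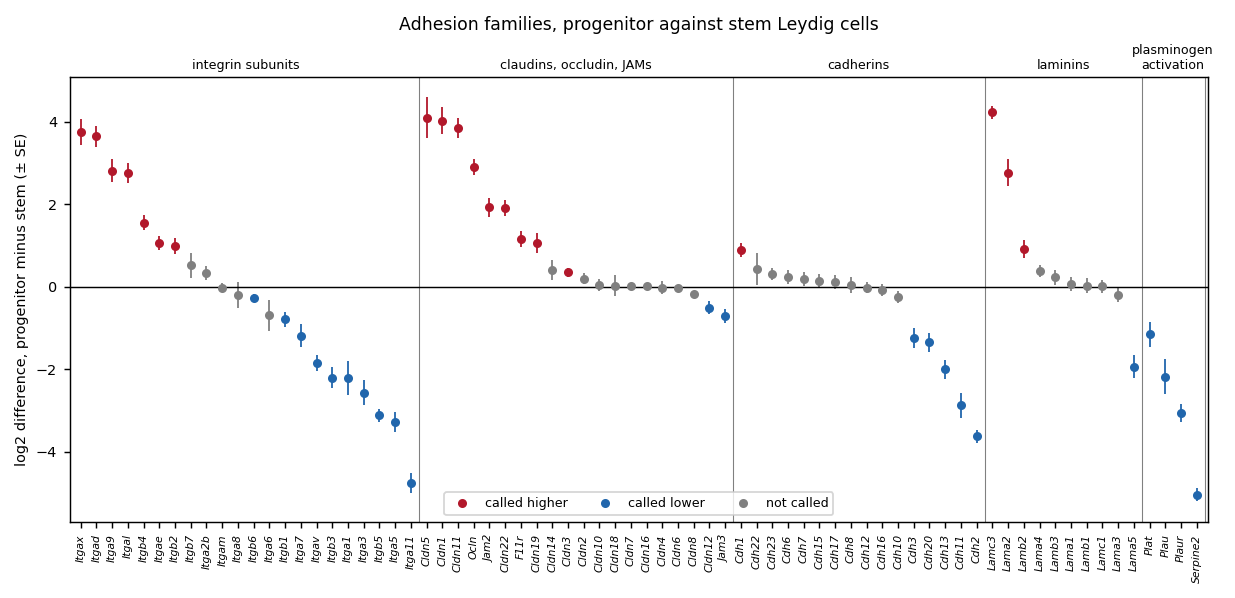
Log2 difference, progenitor minus stem, with its SE for every measured gene of 5 adhesion families, red where called higher, blue where called lower and grey where not called. Integrins split into 7 higher and 10 lower, claudins and related genes are mostly higher among those called (9 against 2, and 8 against 4 with median centring), and the 4 plasminogen activation genes are all lower.

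Basement membrane and matrix receptor genes were called in both directions. Of 77, 23 (29.9%) were higher and 25 (32.5%) lower, beside 26.7% and 18.5% of named genes. Laminin chains differed singly, with Lamc3 (4.23 ± 0.15) and Lama2 (2.77 ± 0.33) higher and Lama5 lower (-1.93 ± 0.27). Sparcl1, an anti-adhesive matrix protein, was at 973.3, 806.7 and 747.9 in progenitor and 12.79 to 37.72 in stem cells (4.62 ± 0.27), and Matn2 was higher by 4.41 ± 0.21. Col8a1, a short-chain collagen, fell from 1796, 653.5, 1098, 714.7 and 798.9 to 1.409, 3.791 and 1.351 (-5.72 ± 0.23, adjusted p = 9.29e-14), and Fbln2 was lower as well (-5.24 ± 0.28).

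Matrix proteases and their inhibitors gave 38 higher (24.4%) and 41 lower (26.3%) of 156, beside 26.7% and 18.5% of named genes. All 4 measured genes of plasminogen activation were lower, led by the inhibitor Serpine2 (1051, 1326, 1139, 1156 and 1396 in stem, 23.64, 21.74 and 18.09 in progenitor cells, -5.04 ± 0.16), with the urokinase receptor Plaur at -3.06 ± 0.22 and urokinase, Plau, at -2.18 ± 0.42. Of 21 matrix metalloproteinases and their inhibitors, 9 were lower and 4 higher, with Mmp16 at -3.55 ± 0.22 and Timp3 at 3.37 ± 0.29. Cpa1, a digestive carboxypeptidase of the pancreas, was at 1989, 2549 and 1879 in progenitor and 1.629 to 7.933 in stem cells (6.61 ± 0.46). Adamts9 was higher by 4.04 ± 0.25, and Cpe, which processes peptide hormones, was lower (53.75 to 109.4 against 1617 to 3189, -4.69 ± 0.44).

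Signalling genes gave 183 higher and 166 lower of 682 as deposited, and more lower than higher under both other scalings (160 and 185, and 142 and 230). Growth factor ligands and antagonists were lower in 43 of 133 cases (32.3%) and higher in 31 (23.3%), and 51 were lower and 18 higher with median centring. Inhba, which encodes the subunit of activin A, had signals of 1441, 1465, 1252, 1335 and 1610.0 in stem cells and 75.24, 72.11 and 34.2 in progenitor cells (-4.28 ± 0.33, adjusted p = 1.79e-09). The inhibin alpha subunit gene Inha was higher (3.38 ± 0.20), and the activin antagonist genes Fst (-3.45 ± 0.28) and Fstl3 (-3.73 ± 0.16) were lower, so that the activin A subunit gene and these antagonist genes were lower together.

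The transforming growth factor beta family showed the same pattern of lower signals. Of 7 ligands and latent binding proteins, 5 were lower and 1, Ltbp4, was higher (2.04 ± 0.35). Ltbp2 was at 1079, 982.8, 656.5, 1040.0 and 1453 in stem and 3.857, 10.52 and 22.63 in progenitor cells (-5.23 ± 0.25), and the ligands Tgfb1 (-1.24 ± 0.22), Tgfb2 (-2.48 ± 0.25) and Tgfb3 (-3.19 ± 0.26) were lower. The Id genes, which inhibit basic helix-loop-helix factors, were lower in 3 of 4 cases, with Id3 at 171.8 to 196.1 against 1322 to 1935 (-2.93 ± 0.20), and Id2 was higher (1.40 ± 0.28). Vegfc (-4.05 ± 0.26) and Vegfa (-1.13 ± 0.19) were lower, and Flt1, a receptor, was lower (-1.71 ± 0.23) where Kdr was higher. Ligands that were higher include Angptl4, an inhibitor of lipoprotein lipase (952, 822.2 and 1830.0 against 19.91 to 27.13, 4.89 ± 0.25), and pleiotrophin, Ptn (1094 to 1660.0 against 18.64 to 138.3, 4.52 ± 0.34).

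Hedgehog, Wnt and Notch genes gave 20 higher and 16 lower of 83, which median centring turned to 14 and 22. The share called (43.4%) was near that of named genes as a whole (45.2%), and differences reached down to -3.75. Wnt6 was at 299.3, 324.5 and 318.4 in progenitor and 8.225 to 17.84 in stem cells (3.45 ± 0.20), and Wnt5b was higher by 2.71 ± 0.22 where Wnt5a was lower (-1.87). Hes1, a Notch target, was lower, at 105.8, 76.63 and 143.2 against 406.9 to 1251 (-2.57 ± 0.34). In the hedgehog pathway, whose ligand in the testis comes from Sertoli cells, the targets Gli1 (3.98) and Hhip (1.68) and the transducer Smo (0.96) were higher. These genes were picked after their values were seen, and the other members of the pathway are not given here.

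Cytokines and chemokines were higher in 26 of 79 cases (32.9%) and lower in 12 (15.2%), beside 26.7% and 18.5% of named genes. The counts were 22 and 19 with median centring. The largest rises were the lymphocyte chemokines Ccl5 (1947, 3188 and 2694 against 2.159 to 9.69, 6.93 ± 0.40) and Xcl1 (1327, 1682 and 1408 against 1.053 to 2.079, 6.41 ± 0.33), beside the leukocyte sums given above. The falls were of Spp1, osteopontin (2408, 1748, 1627, 1513 and 2076 in stem, 27.78, 25.37 and 37.04 in progenitor cells, -5.35 ± 0.29), and of the monocyte chemokine Ccl2, at 65.83 to 130.8 in progenitor cells and 444.1, 1404, 1656, 1574 and 1483 in stem cells (-3.47 ± 0.57).

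Feedback genes of the MAP kinase, JAK-STAT and SMAD pathways were called more often than named genes as a whole, with 35 higher and 42 lower of 121 (63.6%). Among 20 dual specificity phosphatases, 7 were lower and 4 higher. Dusp14 was at 580.5 to 800.9 in stem and 25.07, 32.92 and 37.59 in progenitor cells (-3.82 ± 0.18), and Dusp6, a target and brake of ERK signalling, was lower (-2.75 ± 0.25). The ERK antagonist Spry4 was lower as well (-2.06 ± 0.22), while Dusp9 was higher (229.1 to 311 against 5.937 to 21.39, 3.25 ± 0.18). Ptpn6, which encodes the phosphatase SHP-1 of blood cells, was higher (3.09 ± 0.20), beside the leukocyte markers.

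In cyclic nucleotide and G protein signalling 30 of 137 genes (21.9%) were higher and 23 (16.8%) lower, beside 26.7% and 18.5% of named genes. Lower calls were the more frequent under both other scalings (27 and 32, and 24 and 45). Prkar2b, a regulatory subunit of protein kinase A, through which luteinizing hormone acts, had signals of 1670.0, 2269 and 1879 in progenitor and 40.79, 53.04, 78.39, 73.93 and 51.55 in stem cells (4.71 ± 0.24, adjusted p = 3.27e-12). The catalytic subunit Prkaca (1.15 ± 0.25) and the regulatory subunit Prkar1a (0.65 ± 0.13) were higher, and Prkar1b was lower (-2.57 ± 0.18). Rgs1, of lymphocytes, was higher (4.25 ± 0.34) beside the leukocyte markers, and Gng8 was lower (-3.29 ± 0.21).

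Calcium, phospholipase and prostaglandin genes gave 41 higher (31.8%) and 30 lower (23.3%) of 129, beside 26.7% and 18.5% of named genes. The counts were 34 and 41 with median centring. Calb2, the calcium-binding protein calretinin, was at 1180.0, 1866 and 1335 in progenitor and 1.965 to 12.18 in stem cells (5.94 ± 0.20, adjusted p = 7.73e-15). Both cyclooxygenase genes, which start prostaglandin synthesis, were lower. Ptgs1 fell from 338.2, 616.4, 471.6, 876.2 and 572 to 5.327, 9.549 and 15.46 (-4.45 ± 0.24), and Ptgs2 from 146.6 to 562.4 down to 17.81 to 24.86 (-3.16 ± 0.30). Hpgd, which inactivates prostaglandins, was higher (4.06 ± 0.24). The prostaglandin E synthase genes Ptges (1.23 ± 0.26) and Ptges2 (0.94 ± 0.15) were higher as well. Of 9 cyclooxygenase and prostaglandin enzyme genes, 3 were higher and 2 lower.

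**Figure D5:**
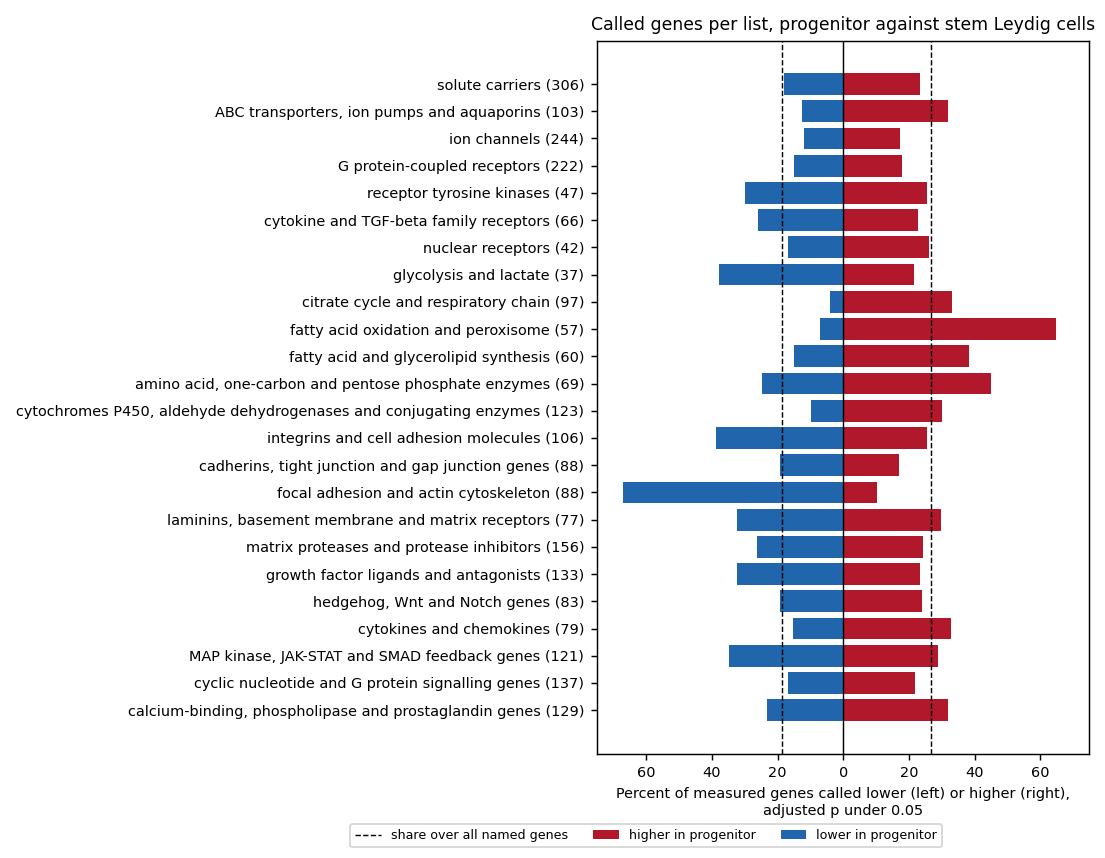
Percent of the measured genes of each of 24 lists that were lower (left, blue) or higher (right, red) in progenitor cells at an adjusted p under 0.05, with the number measured in brackets and dashed lines at the shares over all named genes (18.5% and 26.7%). Fatty acid oxidation (64.9% higher) and focal adhesion (67% lower) reach farthest, and in 8 lists with more higher than lower genes the balance turned with median centring, in 4 of them also with quantile normalization.

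The later Leydig stages and the bone stem cells give the levels of these genes outside the comparison. Of the 50 named genes that were higher in progenitor cells, 49 had an immature mean nearer to the progenitor than to the stem mean on the log2(signal + 16) scale, the exception being Kdr, and 38 had an adult mean nearer to it. Of the 51 named genes that were lower, 50 had an immature mean nearer to the progenitor mean, the exception being Gja1. An adult mean nearer to the progenitor mean was seen for 49, the exceptions being Gja1 and Spp1. A bone stem mean nearer to the stem Leydig mean was seen for 48. Slc16a3 averaged 1094 in bone stem, 18.51 in immature and 19.51 in adult cells, and Itga11 2531, 8.522 and 4.656. Among the rises, Aqp9 went on to 1481 in immature and 2871 in adult cells and Gnrhr to 424.8 and 1071. Cyp26b1 was at 1827 and 231.3 and was present in bone stem cells at 646.5. Kitlg was at 515.2 in immature, 114.5 in adult and 437.2 in bone stem cells. These levels were not tested here. Most of these genes were chosen for large differences between progenitor and stem cells, and the same counts over all 14217 named genes were not made.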

How the data were processed

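RNA of 19 samples, labelled from 6 ug each, was hybridised to Affymetrix rat arrays. The authors deposited MAS5 signals, a linear intensity for each probe set, whose 2% trimmed mean is 100 on every array. The submitters' processing notes name MAS5 and GCOS without a version. Detection calls were not used, and the number of arrays limits the precision. Of 31099 probe sets, 57 controls were left out. Symbols came from the platform annotation and a RefSeq gene table of the GRCr8 assembly: 20826 probe sets had 1 symbol, 436 several and 9780 none, and 20758 of the 20826 were found by gene ID. The brightest probe set over all arrays stood for each of 14217 genes.

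All 19 arrays entered 1 model of 5 group means on log2(signal + 16) in limma 3.58.1 (R 4.3.3), with moderated two-sided tests, an intensity trend and Benjamini-Hochberg adjustment over 31042 probe sets, called at an adjusted p under 0.05. Each adjusted p in the text is from this model unless another setting is named. On simulated data for this comparison with 31042 probe sets, it recovered 73% of 100 changes of 1 and 100% of 100 changes of 2 on the log2 scale, with 3 false calls. The simulated noise was independent between probe sets, and only probe sets at or above the median mean were changed. These rates therefore check the procedure and do not carry over to the real comparison, where far more probe sets were called. Python 3.11.15, pandas 2.3.3 and matplotlib 3.10.9 were used for tables and plots.

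The comparison, the 24 lists in 5 themes and the 8 marker lists were chosen with earlier results of these data known. Symbols that a name pattern had caught wrongly were taken out after the files were read. From each list, the 2 largest rises and 2 largest falls were named if called, if the progenitor values lay all above or all below the stem values, and if the higher mean was at least 100, passing over genes described earlier. A few genes were named whatever their result. Other genes with values, and the small families, were picked after their values were seen. Alternatives were quantile normalization, median centring, pseudocounts of 1 and 64, a filter on the dimmest 40% of probe sets, a fit with no trend, array weights, the 8 arrays alone, a block for the replicate number, the mean over a gene's probe sets, a minimum of 2-fold, and each array left out in turn. Of the named genes, 1 had a probe set called in the opposite direction (Slc1a3).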

Additional observations from a re-analysis of the deposited data

Results flagged for a closer look

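In the stem group, 9 of the 103 named genes had an array whose gap to the nearest other array was over 0.71 of the group's range. Chance gives about 1 in 20 such groups. On stem replicate 1, Slc16a3 was at 602.2 (923.9 to 1031 on the others), Matn2 at 46.3 (14.57 to 19.06) and Ccl2 at 444.1 (1404 to 1656). On stem replicate 3, Slc8a1 was at 513.6 (610.3 to 646.6), Gamt at 216 (93.99 to 108.2), Aldh1l2 at 163.5 (316.7 to 344) and Cldn5 at 28.5 (6.751 to 11.49). Itgax was at 13.52 on stem replicate 4 (23.61 to 26.01), and Pla2g1b at 1.404 on stem replicate 5 (4.808 to 5.824). Each of these genes kept its call without the array in question.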

How the results depend on the processing

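No named gene changed direction under any of the 18 alternatives run for single genes (all but the 2-fold minimum, which was applied to counts). Of the 103, 97 kept their call and direction under all 18. Most of the 103 were chosen as large called differences without overlap, so this count does not measure how stable other genes are. The balance of counts did turn: probe sets, transport, receptor and signalling genes had more higher than lower calls as deposited and more lower calls with quantile normalization and with median centring. The exceptions were Nr2f6, Atp5if1, Ndufs4 and Ldha, which lost their call, and Nr3c1 and Lif, which gained one. With median centring, 4140 probe sets were higher and 7938 lower, 178 transport and 122 receptor genes were lower, and 110 metabolism genes were higher. With a 2-fold minimum, the counts were 2461 probe sets higher and 1918 lower, 74 and 51 transport genes, 46 and 37 receptor genes, 73 and 33 metabolism genes, 71 and 131 adhesion genes, and 107 and 107 signalling genes. Leaving out each array in turn gave 9758 to 11091 called probe sets.

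The replicate number as a block gave 10076 called probe sets, 59.0% of them higher. Deviations of same-numbered arrays correlated at -0.07, 0.21 and 0.30, and those of differently numbered arrays at -0.33 to 0.31, so the numbers were not taken to pair the arrays. Among named genes, the block ended the call of Ldha (adjusted p = 0.0818) and made one for Lif (0.0268). Nr3c1 passed with quantile normalization (0.0322) and without stem replicate 2 (0.0375) or 4 (0.0267). Lif also passed with quantile normalization (0.0314) and median centring (0.00982), and Nr2f6 did not with the mean of its probe sets (0.401). The causes were not tested. Low signals have no tested floor, since 34.2% to 45.1% of probe sets of an array lay under 16.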

Other observations

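Genes of killer lymphocytes were high on the progenitor arrays. In a list chosen after the data were seen, all 12 genes were higher, with a summed signal of 9099, 12125 and 10789 on the progenitor arrays and 75.62 to 105.6 on the stem arrays. Nkg7 averaged 1000 in progenitor and 2.742 in stem cells, the pore-forming Prf1 447 and 4.677, and the granzymes Gzma 1080 and 6.566 and Gzmb 360.2 and 11.71. Il2rb, on the same list, averaged 556.3 in immature and 56.51 in adult cells.

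Some digestive and secretory genes were high alone among their kind. Of 12 genes of pancreatic acinar cells, also chosen after the data were seen, Cpa1 (2139 in progenitor, 5.964 in stem cells) and the phospholipase gene Pla2g1b (541 and 4.511) were high, while the trypsinogen gene Prss1 (2.57 and 3.321) and the amylase gene Amy2a3 (3.02 and 1.622) were near the bottom of the scale in both groups. Cpa1 averaged 523.0 in immature and 4.27 in adult cells. Among seminal vesicle genes, Svs5 averaged 2984 in progenitor and 5.391 in stem cells, against 16.49 and 5.384 for Svs4 and 13.89 and 2.215 for Svs6.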
